A study of Mus musculus with 48 samples.

Results

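The genes examined here were the 8 mouse genes H2-Aa, H2-Ab1, H2-Eb1, H2-DMa, H2-DMb1, H2-Oa, Cd74 and Ciita, which carry out and control antigen presentation by major histocompatibility complex (MHC) class II. They were found by name, as the rows of the gene counts whose Ensembl identifier maps to one of these symbols, and all 8 were found among 56748 identifiers. RNA came from the liver, the brown fat (BAT) and the epididymal white fat (eWAT) of male mice. One genotype, hepAGT-/- (here KO), has the gene of angiotensinogen (Agt, from which angiotensins are cut) deleted in hepatocytes, and the other, hepAGT+/+ (here WT), comes from the same litters without the deletion. Housing was at room temperature (RT, between 20 and 22 °C) or thermoneutral (TN, 30 °C, warm enough that extra heat production is hardly needed), and every animal ate a Western diet (TD.88137, with 21% milk fat and 0.2% cholesterol) over 12 weeks. The 12 groups were therefore WT RT, KO RT, WT TN and KO TN in each of the 3 tissues, with 4 libraries each and 48 in all. The labels call the libraries of a group biological replicates. The driver of the deletion, the strain and the age of the mice are not given in the sources used here.

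MHC class II molecules are pairs of an alpha and a beta chain that show peptides from swallowed proteins to CD4+ T cells. H2-Aa and H2-Ab1 encode the chains of the I-A molecule and H2-Eb1 the beta chain of I-E. Cd74, the invariant chain, holds the peptide groove closed until the molecule reaches the endosome, where the DM molecule (H2-DMa with H2-DMb1) removes its last fragment and helps to load peptide, and the DO molecule, which holds the H2-Oa chain, restrains DM. Ciita is the coactivator without which these genes are barely transcribed. It does not bind DNA itself but docks on RFX, CREB and NF-Y proteins that sit side by side on the promoters. Dendritic cells, macrophages and B cells make class II at high levels, and interferon gamma induces Ciita in many other cell types. In fat and liver the tissue macrophages, Kupffer cells among them, are a known source.

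The promoter motifs that RFX and NF-Y are known to bind were searched for in those class II genes that had a promoter sequence at hand. Promoter sequences were taken from RefSeq (GRCm38.p6), where 5 of the 8 genes matched, H2-DMa with 2 entries. H2-Ab1, Cd74 and Ciita were not matched. The motifs searched were GNAAC, the core of the X box, and GATTGG, the core of the Y box. The search covered both strands of the 250 bases before the start. In H2-Aa, H2-Oa and H2-DMb1 a GNAAC stood 27 bases before a GATTGG, and in H2-Eb1 it stood 26 bases before it. The stretches from 120 to 31 bases before the start of 3 of these genes follow, 5′ to 3′ on the gene's strand, with GNAAC and GATTGG in capitals, at chr17:34287854-34287943 on the minus strand for H2-Aa, chr17:34305747-34305836 on the plus strand for H2-Eb1 and chr17:34092259-34092348 on the plus strand for H2-Oa.
H2-Aa: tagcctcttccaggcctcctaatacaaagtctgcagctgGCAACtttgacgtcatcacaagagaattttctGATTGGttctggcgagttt
H2-Eb1: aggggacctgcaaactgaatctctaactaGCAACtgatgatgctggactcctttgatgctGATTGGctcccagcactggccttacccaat
H2-Oa: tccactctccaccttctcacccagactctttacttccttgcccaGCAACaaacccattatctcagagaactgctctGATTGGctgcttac
Of 32851 RefSeq promoters of the same length, 14.6% held a GATTGG, 79.6% a GNAAC, and 344 (1.05%) a GNAAC lying 15 to 35 bases before a GATTGG. The pair was chosen with these sequences in view, and a match is a description of the letters only. Neither H2-DMa entry held the pair in this window. H2-Oa, whose RNA was at most 1.499 CPM in any library, held the pair as H2-Aa did.

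On the GRCm38 genome 6 of the 8 genes lie close together on chromosome 17. In the order of their coordinates these are H2-Oa (34092340 to 34095234), H2-DMa (34119541 to 34139101), H2-DMb1 (34153072 to 34160230), H2-Ab1 (34257689 to 34269419), H2-Aa (34282744 to 34287823, on the minus strand) and H2-Eb1 (34305867 to 34316674). Ciita lies on chromosome 16 (10480059 to 10528418). Counts were made over exons of each gene. H2-Eb1 and H2-Oa each overlap an antisense gene, H2-DMa overlaps 4 other genes including Brd2, Cd74 overlaps a microRNA gene, and Ciita overlaps Dexi on the other strand. The strand setting of the counting is not given in the sources used here, so reads of such partners cannot be told apart, and H2-DMb1 may share reads with its close copy H2-DMb2.

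Liver libraries held 23.7 to 36.5 M counts (megacounts) each, BAT libraries 25.3 to 39.4 M and eWAT libraries 28.7 to 43.7 M. Levels are given in CPM, the counts of a gene per megacount of its library after trimmed-mean scaling within its tissue. CPM of different tissues are therefore not on a common scale. The tests between tissues used a fit in which all 48 libraries were scaled together. In liver, Agt was at 125 to 207 CPM in the 8 KO libraries and at 276 to 504 CPM in the 8 WT libraries, without overlap. Some libraries stood apart. Liver KO TN replicates 4 and 5 were high in leukocyte genes, 6 BAT libraries held more than 500 CPM of skeletal muscle markers (579 to 3676 CPM in KO RT replicates 14 and 19, WT TN replicates 6 and 24, KO TN replicates 2 and 5), and eWAT WT RT replicate 18 held 946 CPM of epididymis markers. Hepatocyte markers reached 50543 CPM or more in every liver library, and brown adipocyte markers 2232 CPM or more in every BAT library. In a bulk tissue, fewer cells of a type and less RNA per cell cannot be told apart.

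The summed RNA of the 8 genes was highest in eWAT in every combination of genotype and housing, and Cd74 was the most abundant of the 8 genes once levels were divided by gene length. Per kilobase of exon, the mean level over the 16 libraries of eWAT was 349 CPM for Cd74, 152 CPM for H2-Eb1, 112 CPM for H2-Ab1 and 108 CPM for H2-Aa. The DM chains were lower, at 22.7 CPM per kilobase for H2-DMb1 and 8.10 for H2-DMa. Ciita stood at 1.37 CPM per kilobase and H2-Oa at 0.481. The ranges over libraries of H2-Ab1 (67.0 to 216 CPM per kilobase) and H2-Aa (65.5 to 206) nearly coincide. Both genes were read in the same libraries, and the order of these neighbours was not tested. In liver and BAT the order of the genes was the same. Ciita and H2-Oa were near each other in liver (0.336 and 0.323 CPM per kilobase) and further apart in BAT (0.344 and 0.144).

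By tissue and in plain CPM, Cd74 had a median of 521 CPM in eWAT (351 to 974), 112 CPM in BAT (44.8 to 236) and 68.1 CPM in liver (43.3 to 374). H2-Aa had medians of 368 CPM in eWAT (249 to 781), 87.0 CPM in BAT (26.9 to 149) and 31.7 CPM in liver (17.6 to 189). The lowest eWAT library thus lay above the highest liver and BAT libraries for H2-Aa, while for Cd74 the highest liver library (374 CPM) reached the eWAT range. Ciita had medians of 11.8 CPM in eWAT (5.26 to 32.4), 2.76 CPM in BAT (0.398 to 7.07) and 2.02 CPM in liver (0.551 to 16.6), with overlap between eWAT and both other tissues. H2-DMb1 followed the same order, with medians of 33.2 CPM in eWAT, 4.91 CPM in BAT and 3.54 CPM in liver. H2-DMa was also highest in eWAT, at a median of 25.4 CPM, but its median was lower in BAT (3.91 CPM) than in liver (4.51 CPM).

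**Figure D1:**
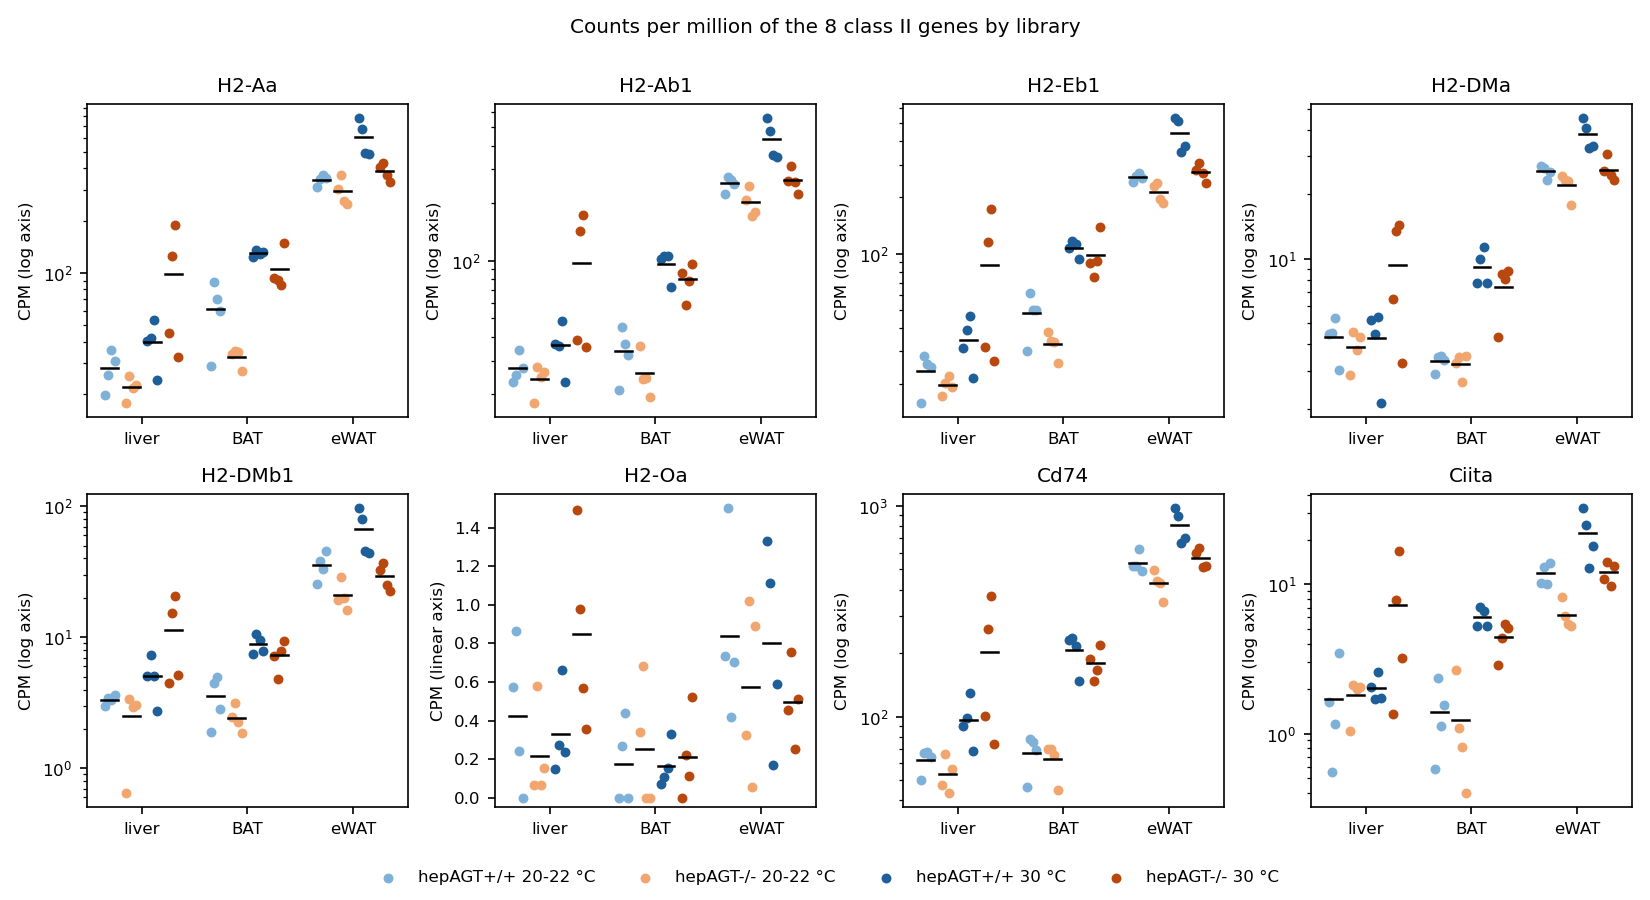
Each panel plots 1 gene, with CPM on the vertical axis (log axis, linear for H2-Oa) and the tissues along the horizontal axis. Points are libraries, 4 per group, coloured by genotype and housing, and black bars are group means. eWAT has the highest median for each gene, with overlap between all tissues for H2-Oa. In BAT the TN points lie above the RT points of the same genotype for 7 genes, and 2 liver KO TN libraries stand above the rest of liver for the 7 genes other than H2-Oa.

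In 1 fit of all 48 libraries, averaged over the 4 combinations of genotype and housing, 7 of the 8 genes were called higher in eWAT than in liver, against 38.3% of all genes tested. A gene counts as called where its Benjamini-Hochberg adjusted p, from edgeR's quasi-likelihood test of every gene kept, is below 0.05. H2-Aa differed most, by a log2 fold change of 2.797 (SE 0.17, adjusted p = 3.1e-18), and Ciita least among those called, by 1.67 (SE 0.24, adjusted p = 7.07e-08). Cd74 differed by 2.14 (SE 0.14, adjusted p = 1.61e-17). H2-Oa, with a log2 difference of 0.19 (SE 0.56, adjusted p = 0.7804), was not called. Between eWAT and BAT all 8 were called higher in eWAT, against 31.1% of all genes, from 1.296 (SE 0.57, adjusted p = 0.0463) for H2-Oa to 2.43 (SE 0.20, adjusted p = 3.33e-14) for H2-DMb1. The call of H2-Oa did not hold without the filter on low counts (adjusted p = 0.0518) or in WT RT libraries alone (adjusted p = 0.2305), while DESeq2 called it (adjusted p = 0.0182). It was also lost, with adjusted p up to 0.07699, when 1 of these libraries was left out: BAT KO RT replicate 14 or 19, BAT KO TN replicate 2, 3 or 4, BAT WT RT replicate 12 or 18, BAT WT TN replicate 1, 6 or 7, eWAT KO RT replicate 10 or 19, eWAT KO TN replicate 3, 4 or 21, eWAT WT RT replicate 12, 13 or 18, eWAT WT TN replicate 6 or 7 or liver KO TN replicate 4. The other 7 genes kept their calls in each of these refits. Between BAT and liver only H2-Aa (0.77, SE 0.16, adjusted p = 4.99e-05) and H2-Eb1 (0.78, SE 0.16, adjusted p = 3.54e-05) were called higher in BAT, against 37% of all genes. For Cd74 that difference was 0.20 (SE 0.13, adjusted p = 0.1802). Without liver KO TN replicate 5, 4 genes were called between BAT and liver. In WT RT libraries alone, edgeR called H2-DMa lower in BAT than in liver (-0.57, adjusted p = 0.0289). DESeq2 on all libraries called H2-Oa lower in BAT (-1.15, adjusted p = 0.0431).

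Of the comparisons of genotype or housing within a tissue, housing in BAT had the most class II genes called. H2-Aa, H2-Ab1, H2-Eb1, Cd74, H2-DMa, H2-DMb1 and Ciita rose at TN in both genotypes, while H2-Oa was not called. The count of 7 of 8 compares with 15.9% of all genes called higher in WT and 6.64% in KO. All 7 had groups that did not overlap in either genotype. The share of all genes with groups apart was not counted, so this count cannot be read as particular to the class II genes. The median of the 8 log2 fold changes was 1.40 in WT and 1.59 in KO, beside medians over all genes tested of 0.11 and 0.04.

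Among the chains of the class II molecule, H2-Aa in BAT read 28.9, 60.02, 69.99 and 88.8 CPM in WT RT replicates 12, 18, 17 and 15. At TN it read 124, 129, 132 and 136 CPM in WT TN replicates 1, 7, 24 and 6. The 4 TN libraries were close together and above every RT library, of which replicate 12 was the lowest (log2 fold change 1.07, SE 0.25, adjusted p = 0.00344). In KO, H2-Aa read 26.9, 33.8, 34.9 and 35.4 CPM at RT and 85.3, 90.2, 92.8 and 149 CPM at TN. Every KO TN library lay above every KO RT library, with replicate 5 highest (log2 fold change 1.67, SE 0.25, adjusted p = 0.000311). H2-Ab1, its partner chain, read 21.02, 31.96, 36.5 and 44.96 CPM at RT and 72.5, 103, 105 and 106 CPM at TN in WT. Replicate 24 was the lowest of the TN group and still above all RT libraries (log2 fold change 1.52, SE 0.23, adjusted p = 0.000103). In KO, H2-Ab1 read 19.4, 24.01, 24.3 and 35.8 CPM at RT and 58.9, 78.3, 86.2 and 96.4 CPM at TN. The KO groups were again apart (log2 fold change 1.63, SE 0.23, adjusted p = 0.0001403). H2-Eb1, the beta chain of I-E, had 30.2 to 61.9 CPM at RT and 93.9 to 116 CPM at TN in WT (log2 fold change 1.17, SE 0.21, adjusted p = 0.0003696) and, likewise, 25.8 to 38.3 CPM and 75.2 to 138 CPM in KO (log2 fold change 1.58, SE 0.21, adjusted p = 7.17e-05).

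Cd74, the invariant chain, read 46.2, 69.7, 75.7 and 77.8 CPM in WT RT replicates 12, 18, 17 and 15. At TN it read 147, 217, 231 and 236 CPM in WT TN replicates 24, 7, 1 and 6. The groups were far apart, and this was the smallest adjusted p of the 8 genes in WT (log2 fold change 1.63, SE 0.20, adjusted p = 2.2e-05). In KO, Cd74 read 44.8, 65.9, 69.9 and 70.03 CPM at RT and 148, 166, 188 and 219 CPM at TN. Replicate 19 was the lowest at RT, and no TN library came near the RT range (log2 fold change 1.52, SE 0.20, adjusted p = 8.05e-05).

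Both peptide-loading chains rose as well. H2-DMa had 2.92 to 3.52 CPM at RT and 7.68 to 11.4 CPM at TN in WT (log2 fold change 1.47, SE 0.24, adjusted p = 0.0001901). In KO it had 2.68 to 3.52 CPM at RT and 4.31 to 8.802 CPM at TN, where TN replicate 2 was the lowest (log2 fold change 1.197, SE 0.24, adjusted p = 0.00219). H2-DMb1 rose by a log2 fold change of 1.32 in WT and 1.597 in KO, with adjusted p = 0.002196 and 0.00139. H2-Oa, the chain of the DM inhibitor, had at most 0.681 CPM in any BAT library and 0 counts in 5 of the 16. If each count were an independent fragment, a count of 0 would allow up to 3 counts. That is 0.0769 to 0.156 CPM over the 6 libraries of liver and BAT where it occurred. Most H2-Oa counts were even numbers, so both ends of a fragment may have been counted, and the bound would then be higher. Counts this low limit the size of difference that could be called for H2-Oa.

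Ciita, the coactivator, read 0.576, 1.12, 1.56 and 2.35 CPM in WT RT replicates 12, 17, 18 and 15. At TN it read 5.24, 5.28, 6.65 and 7.07 CPM in WT TN replicates 1, 24, 7 and 6. The groups were apart, and its fold change was the largest of the 8 in WT (log2 fold change 2.11, SE 0.48, adjusted p = 0.00266). In KO, Ciita read 0.398, 0.808, 1.09 and 2.65 CPM at RT and 2.87, 4.36, 5.08 and 5.44 CPM at TN. KO RT replicate 9, at 2.65 CPM, came close to the lowest TN library, and the groups did not overlap (log2 fold change 1.84, SE 0.48, adjusted p = 0.01300). These levels are low, resting on 12 to 78 counts per RT library and 112 to 262 counts per TN library.

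**Figure D2:**
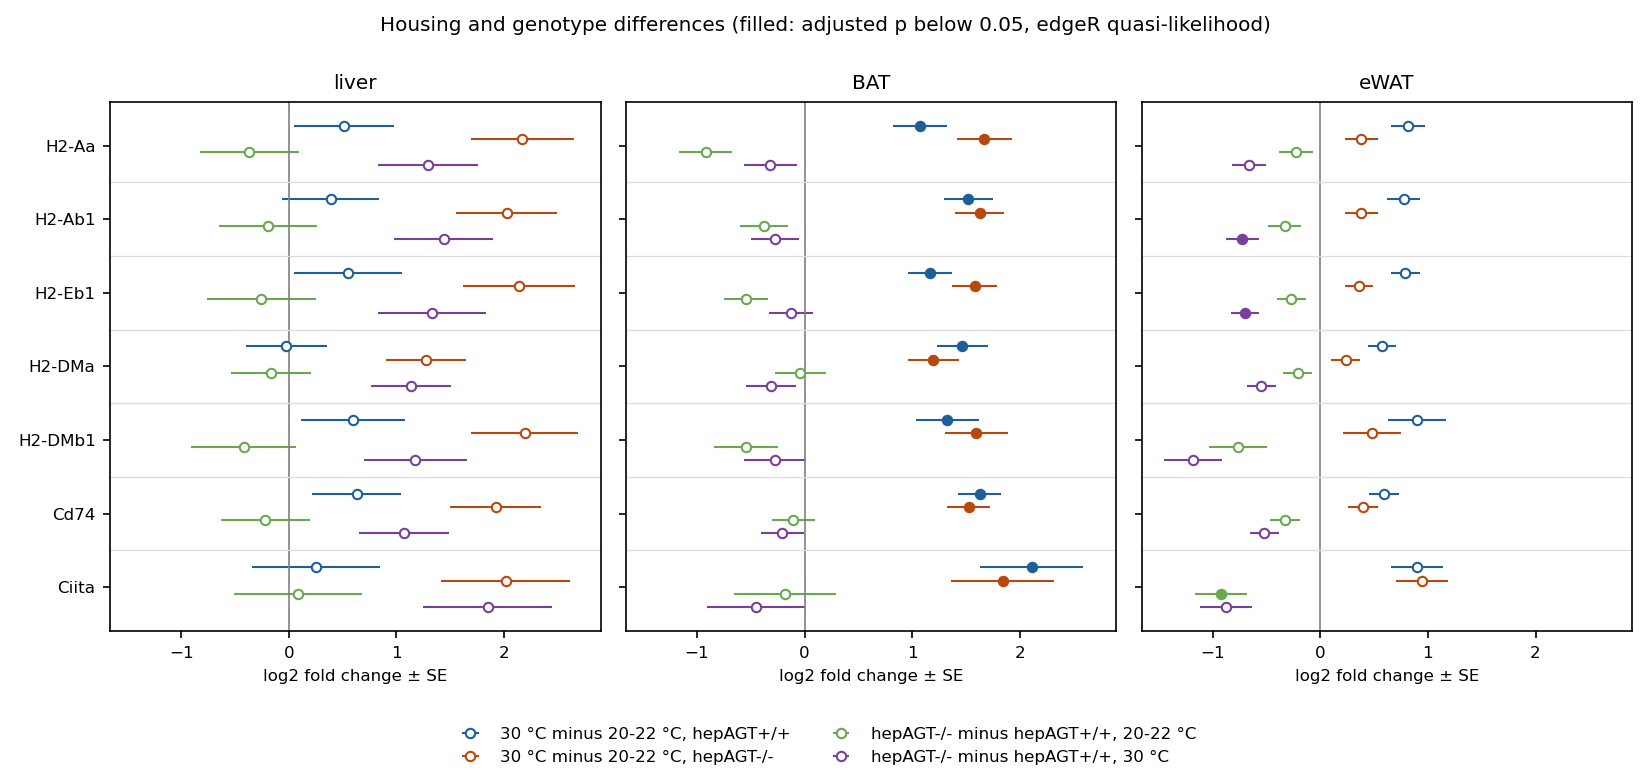
Log2 fold changes (horizontal axis) with their standard errors for 7 of the genes (vertical axis; H2-Oa, with few counts, is left out) are drawn for liver, BAT and eWAT. Filled points passed the adjusted threshold of 0.05. In BAT all 14 housing differences are filled and lie between 1.07 and 2.11; in liver none is filled and the error bars are wide; in eWAT 3 genotype differences are filled, all below 0.

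None of the 8 genes had a called interaction in BAT, where 0% of all genes were called, 0 of the 8 had an unadjusted p below 0.05, and DESeq2 called none. The housing changes of the 2 genotypes therefore could not be distinguished, and the widest gap was H2-Aa, at 1.07 in WT and 1.67 in KO (interaction 0.60, SE 0.35, adjusted p = 0.549). The 7 calls stood in both genotypes under every other setting tried but one. Without the 6 BAT libraries above 500 CPM of muscle markers, chosen as a limit after seeing the data, 7 remained called in WT and 4 in KO (H2-Ab1, H2-Eb1, H2-DMa and Cd74). There the log2 fold changes in KO of H2-Aa, H2-DMb1 and Ciita were 1.38, 1.23 and 1.42, with adjusted p = 0.0624, 0.141 and 0.196.

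Genes of neighbouring steps changed in BAT as well. In each genotype 7 of 9 class I presentation genes rose at TN, against 15.9% (WT) and 6.64% (KO) of all genes called higher. Among them was H2-D1 (1.23 in WT, SE 0.18, adjusted p = 6.85e-05). B2m, the light chain of class I, was another (1.49 in KO, SE 0.23, adjusted p = 0.000274). Of 7 endosomal processing genes, Ctss, the protease that trims the invariant chain, rose by 1.88 (SE 0.28, adjusted p = 0.000121) in WT and 1.996 (SE 0.28, adjusted p = 0.000183) in KO. Ctsd, an aspartic protease of lysosomes, fell in both (-1.26 in WT and -0.89 in KO), and Ctsb fell in WT (-0.85). These 3 of 7 called in WT and 2 of 7 in KO compare with 32.5% and 15.2% of all genes called in either direction. Of the 7 promoter factors, Rfx5, Creb1 and Rfxap rose and Nfyc and Rfxank fell in WT, and in KO 1 of 7, Nfyc, was called, lower, against the same shares of all genes. The RFX subunits were thus split in WT, with 0.87 for Rfx5, 0.65 for Rfxap and -0.78 for Rfxank. Of 7 genes of the interferon gamma axis, Ifngr1, a receptor chain, rose in both genotypes (1.16 and 1.03) and Jak2 rose in WT (0.75). Irf1, a factor further down that axis, was not called. Of 5 genes of turnover and costimulation, Cd86, a costimulatory ligand, rose by 1.905 in WT and 1.87 in KO. March1, a ligase that removes surface class II, rose by 1.91 in WT. Beside these 2 lists, too, stand 32.5% (WT) and 15.2% (KO) of all genes called in either direction. Of the other class II genes, 4 of 5 symbols were in the files, 2 passed the filter on low counts in BAT, and none was called.

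Markers of cells that make class II moved in the same comparison. All 8 macrophage markers rose at TN in WT (against 15.9% of all genes called higher) and 7 of 8 in KO (against 6.64%). Their summed level was 44.7 to 129 CPM at RT and 174 to 257 CPM at TN in WT and, likewise, 55.5 to 71.4 CPM and 115 to 185 CPM in KO, without overlap in either. Ptprc, the pan-leukocyte gene, rose by 2.04 and 1.01. Of 8 dendritic cell markers 3 rose in each genotype, Itgax and Clec9a in both, against the same shares of all genes. Of the B-cell markers, 7 of 8 could be tested and none was called, and their sum was 1.36 to 1.98 CPM at RT and 2.91 to 4.85 CPM at TN in WT, and 1.59 to 12.4 CPM and 1.76 to 7.92 CPM in KO. Cd79a, Cr2, Fcer2a, Ms4a1 and Pax5 were each at 0 in at least 1 BAT library. None of 7 T-cell markers was called. All 4 brown adipocyte markers fell in both genotypes, against 3003 (WT) and 1537 (KO) of all 18032 genes called lower. Their sum was 7281 to 15341 CPM at RT and 2387 to 6026 CPM at TN in WT. The part that these shifts have in the class II values was not tested.

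**Figure D3:**
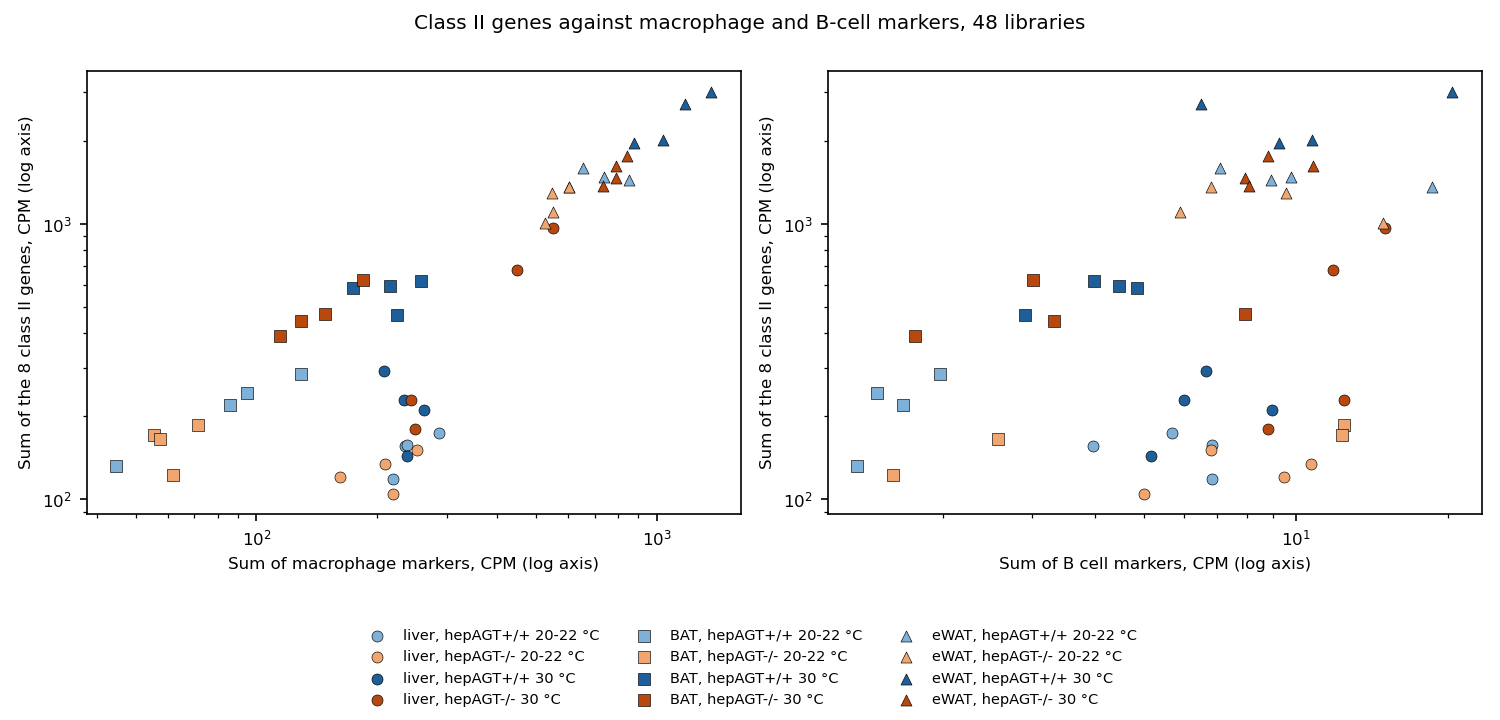
The summed CPM of the 8 genes (vertical log axis) is plotted against the summed CPM of 8 macrophage markers (left) and 8 B-cell markers (right), both on log axes, for the 48 libraries. Shape gives the tissue and colour the group. On the left the BAT and eWAT libraries rise along a band, while most liver libraries sit together between 161 and 286 CPM of macrophage markers with class II sums of 105 to 291 CPM; on the right the points scatter, with B-cell sums of 1.36 to 20.4 CPM.

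No class II gene was called for genotype in BAT. At RT none of the 8 was called, against 0.0887% of all genes, and at TN none, against 0%. At RT, 2 had an unadjusted p below 0.05, against 3507 of all 18032 genes, and DESeq2 called 1, H2-Aa. H2-Aa at RT was lower in KO than in 3 of the 4 WT libraries, and WT replicate 12 lay within the KO range (log2 fold change -0.92, SE 0.25, adjusted p = 0.107). Without that replicate 2 genes were called, and H2-Aa stood at -1.15 with an adjusted p of 0.0035. At TN no gene had an unadjusted p below 0.05 and DESeq2 called none.

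In eWAT few class II genes passed the test for genotype, and those that did were lower in KO. At RT 1 of 8, Ciita, fell, against 3.13% of all genes called lower. At TN 2 of 8, H2-Ab1 and H2-Eb1, fell, against 0.412% of all genes called lower. All 8 log2 fold changes were below 0 at each temperature, with medians of -0.33 at RT and -0.69 at TN, beside medians over all genes of -0.0021 and 0.01. At TN, 7 of the 8 had an unadjusted p below 0.05, against 2603 of all 18933 genes, and 6 had groups that did not overlap. At RT these counts were 4, against 3358 of all genes, and 2. How many of all genes had groups apart was not counted, so these counts of groups apart cannot be read as particular to the class II genes.

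Ciita in eWAT at RT read 10.1, 10.3, 13.05 and 13.9 CPM in WT RT replicates 15, 12, 13 and 18. In KO it read 5.26, 5.39, 6.13 and 8.296 CPM in KO RT replicates 19, 16, 10 and 9. Every KO library lay below every WT library (log2 fold change -0.92, SE 0.24, adjusted p = 0.0374). At TN, Ciita read 12.8, 18.1, 25.01 and 32.4 CPM in WT and 9.77, 10.9, 13.3 and 14.2 CPM in KO. The WT values were wide, replicate 8 lay within the KO range, and Ciita was not called at TN (log2 fold change -0.87, SE 0.24, adjusted p = 0.0901). The call at RT held under the other scaling, filters and tools tried, including DESeq2, which called 2 genes. It was lost when KO RT replicate 10, 16 or 19 or WT RT replicate 13, 15 or 18 was left out. Without WT RT replicate 18, which holds epididymis markers, Ciita stood at -0.80 (adjusted p 0.134). Library totals also differed between these groups, at 30.97 to 33.2 M in KO RT and 33.8 to 36.7 M in WT RT.

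H2-Eb1 in eWAT at TN read 351, 379, 512 and 531 CPM in WT TN replicates 8, 23, 7 and 6. In KO it read 238, 269.6, 280.0 and 304 CPM in KO TN replicates 21, 5, 3 and 4. WT replicates 6 and 7 were far above the rest, and replicates 8 and 23 were still above every KO library (log2 fold change -0.70, SE 0.13, adjusted p = 0.0401). H2-Ab1 at TN read 348, 357, 475 and 556 CPM in WT and 222, 257, 260.2 and 313 CPM in KO, with replicates 6 and 7 again highest (log2 fold change -0.72, SE 0.15, adjusted p = 0.0435). H2-Aa read 482, 491, 681 and 781 CPM in WT and 332, 367, 411 and 430.3 CPM in KO. The groups were apart, and the adjusted p missed the threshold (log2 fold change -0.66, SE 0.16, adjusted p = 0.0598). H2-DMb1 had the largest difference, with 43.7 to 96.6 CPM in WT and 22.7 to 37.2 CPM in KO, without overlap and without passing (log2 fold change -1.18, SE 0.27, adjusted p = 0.0608). Cd74 had 663 to 974 CPM in WT and 515 to 629.7 CPM in KO (log2 fold change -0.52, SE 0.14, adjusted p = 0.0834), and H2-DMa 32.8 to 45.2 and 23.3 to 30.8 CPM (log2 fold change -0.55, SE 0.13, adjusted p = 0.0637). The number called at TN turned on the tool and the libraries. The share of all genes given above is that of the main fit and does not apply to these refits. DESeq2 called 7, a fit to only the 8 libraries compared called 0, and leaving out 1 library gave 0 (without KO TN replicate 3, 5 or 21, or WT TN replicate 6 or 7), 4 (without WT TN replicate 23) or 7 (without WT TN replicate 8). None of the 8 had a called interaction in eWAT, where 0% of all genes were called, and DESeq2 called none of the 8. Among the 8, 1 gene, H2-Eb1, had an unadjusted p below 0.05, against 1439 of all genes.

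Some other presentation genes fell in eWAT of KO mice. Ctss and Ctsl, both proteases that process the invariant chain, fell at RT (-0.97 and -1.002) and at TN (-1.18 and -0.89), and Ctsd fell at RT. These were 3 of 7 endosomal processing genes at RT and 2 of 7 at TN, against 3.13% and 0.412% of all genes called lower. The same shares stand beside the class I, interferon gamma axis and macrophage lists below. Of 9 class I genes, Tapbp fell at RT, and H2-K1 (-1.16, SE 0.19, adjusted p = 0.0397), H2-D1 and Tapbp fell at TN. Of the interferon gamma axis, Ifngr2 and Jak1 fell at RT and none was called at TN. No promoter factor was called at either temperature. Of 8 macrophage markers 1 fell at RT (Cd68, -0.87) and 1 at TN (C1qb, -0.75). Their sum was 605 to 853 CPM in WT and 527 to 603 CPM in KO at RT, without overlap, and 879 to 1369 CPM and 736 to 842 CPM at TN, also without overlap. Itgax, a marker of dendritic cells and of inflammatory fat macrophages, fell by 2.16 on the log2 scale at RT. The dendritic cell markers summed to 85.6 to 108 CPM in WT and 62.1 to 80.3 CPM in KO at RT and to 109 to 143 CPM and 84.3 to 108 CPM at TN, apart at both temperatures. No B-cell or T-cell marker was called, and the T-cell sum was 9.68 to 27.2 CPM in WT and 7.94 to 9.42 CPM in KO at TN, without overlap. Markers of lymph node stroma went the other way at RT, with a sum over 4 genes of 1.23 to 22.1 CPM in WT and 27.5 to 53.3 CPM in KO, without overlap. At TN that sum was 5.34 to 47.3 CPM in WT and 8.79 to 77.3 CPM in KO, with overlap, and none of the 3 of these genes that could be tested was called at either temperature. The part of these markers in the class II difference was not tested.

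Housing in eWAT gave class II values in the same direction as in BAT but no call. In WT none of the 8 was called, against 0% of all genes. Among the 8, 7 had an unadjusted p below 0.05, against 1324 of all 18933 genes. Groups were apart for 5, and how many of all genes had groups apart was not counted. H2-Eb1 went from 242, 253, 259.9 and 269 CPM at RT to 351, 379, 512 and 531 CPM at TN (log2 fold change 0.79, SE 0.13, adjusted p = 0.0801). All 4 TN libraries lay above the 4 RT libraries. H2-Aa had 312 to 369 CPM at RT and 482 to 781 CPM at TN (log2 fold change 0.82, SE 0.16, adjusted p = 0.134) and Cd74 had 492 to 621 CPM and 663 to 974 CPM (log2 fold change 0.59, SE 0.14, adjusted p = 0.178). DESeq2 called 5 of the 8, a fit without the filter on low counts 1, and the fit without WT TN replicate 8 called 2. The share of all genes called in these refits is not given here. In KO none was called, against 1.74% of all genes, and 5 had an unadjusted p below 0.05, against 3311 of all genes. Ciita came nearest, at 5.26 to 8.296 CPM at RT and 9.77 to 14.2 CPM at TN with no overlap (log2 fold change 0.94, SE 0.24, adjusted p = 0.0535). It was called with DESeq2, with either other filter on low counts, and without KO RT replicate 9 or KO TN replicate 5. Of the 8 macrophage markers, Mrc1, Csf1r and Mertk rose in KO, against 194 of all 18933 genes called higher, and none was called in WT. The WT TN libraries enter both the housing and the genotype comparison, so those 2 sets of values are not independent.

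In liver no class II gene was called in any comparison, and in KO mice at TN the libraries disagreed with each other. H2-Aa read 32.4, 45.03, 125 and 189 CPM in KO TN replicates 22, 2, 4 and 5. The other 14 liver libraries lay between 17.6 and 53.4 CPM. Replicates 4 and 5 were thus above all other liver libraries, and replicates 2 and 22 were among them. H2-Ab1 read 35.4, 38.6, 143 and 174 CPM and H2-Eb1 26.5, 31.8, 115 and 173 CPM in the same group. Cd74 read 73.7, 101, 261 and 374 CPM in KO TN replicates 22, 2, 4 and 5, against 43.3 to 129 CPM in the other 14 liver libraries. Ciita read 1.36, 3.19, 7.89 and 16.6 CPM in KO TN replicates 2, 22, 4 and 5, against 0.551 to 3.49 CPM. The DM chains also divided this way, with 13.5 and 14.3 CPM of H2-DMa and 15.3 and 20.7 CPM of H2-DMb1 in replicates 4 and 5, against at most 6.49 and 7.35 CPM in the other 14. H2-Oa did not follow, and was highest in replicate 2 (1.49 CPM).

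The other 3 liver groups differed by less. H2-Aa had 28.02 ± 7.03 CPM (SD, n = 4) in WT RT, 21.7 ± 3.16 CPM in KO RT and 39.9 ± 12.1 CPM in WT TN. Cd74 had 62.3 ± 8.27, 53.5 ± 10.5 and 96.4 ± 25.1 CPM in the same groups. KO and WT overlapped for all 8 genes at RT. Cd74 was the 1 gene whose WT TN libraries lay wholly above the WT RT libraries (log2 fold change 0.63, SE 0.41, adjusted p = 0.8400). For genotype at RT 0 of 8 were called (0.0853% of all genes), and for housing in WT 0 of 8 (0.0227%). No gene had an unadjusted p below 0.05 in either comparison, and DESeq2 called none.

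Between KO and WT at TN the 8 log2 fold changes in liver ran from 1.07 to 1.85 with adjusted p from 0.095 to 0.584, so 0 of 8 were called, against 3.18% of all genes. An unadjusted p below 0.05 was reached by 7, against 3099 of all 17594 genes, and DESeq2 called 3. For Ciita the difference was 1.85, SE 0.60, adjusted p = 0.09502, and for Cd74 it was 1.07, SE 0.41, adjusted p = 0.192. Between TN and RT in KO the values ran from 1.28 to 2.19 with adjusted p from 0.0813 to 0.568, again 0 of 8, against 0.114% of all genes. There 7 had an unadjusted p below 0.05, against 1849 of all genes, and DESeq2 called 7. Groups were apart for 5, and how many of all genes had groups apart was not counted. The shares of all genes given here are those of edgeR and do not apply to the DESeq2 counts. H2-DMb1 stood at 2.19, SE 0.50, adjusted p = 0.0813, and H2-Aa at 2.17, SE 0.48, adjusted p = 0.0966. For the interaction 0 of 8 were called, against 0%, with 7 at an unadjusted p below 0.05, against 1290 of all genes. DESeq2 called none of the 8.

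Without replicates 4 and 5, an alternative added after seeing the data, the genotype difference at TN was -0.04 for H2-Aa, 0.04 for H2-Ab1, -0.24 for H2-Eb1, -0.06 for H2-DMb1 and -0.14 for Cd74, and none was called. The 2 KO TN libraries left are assumed there to vary like the other groups. The housing differences in KO were then smaller for the 7 genes other than H2-Oa but above 0, at 0.84 for H2-Aa and 0.72 for Cd74. Leaving out a low library moved the counts the other way. Without replicate 2 or 22, 6 genes were called for housing in KO, and 1 and 2 for genotype at TN.

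**Figure D4:**
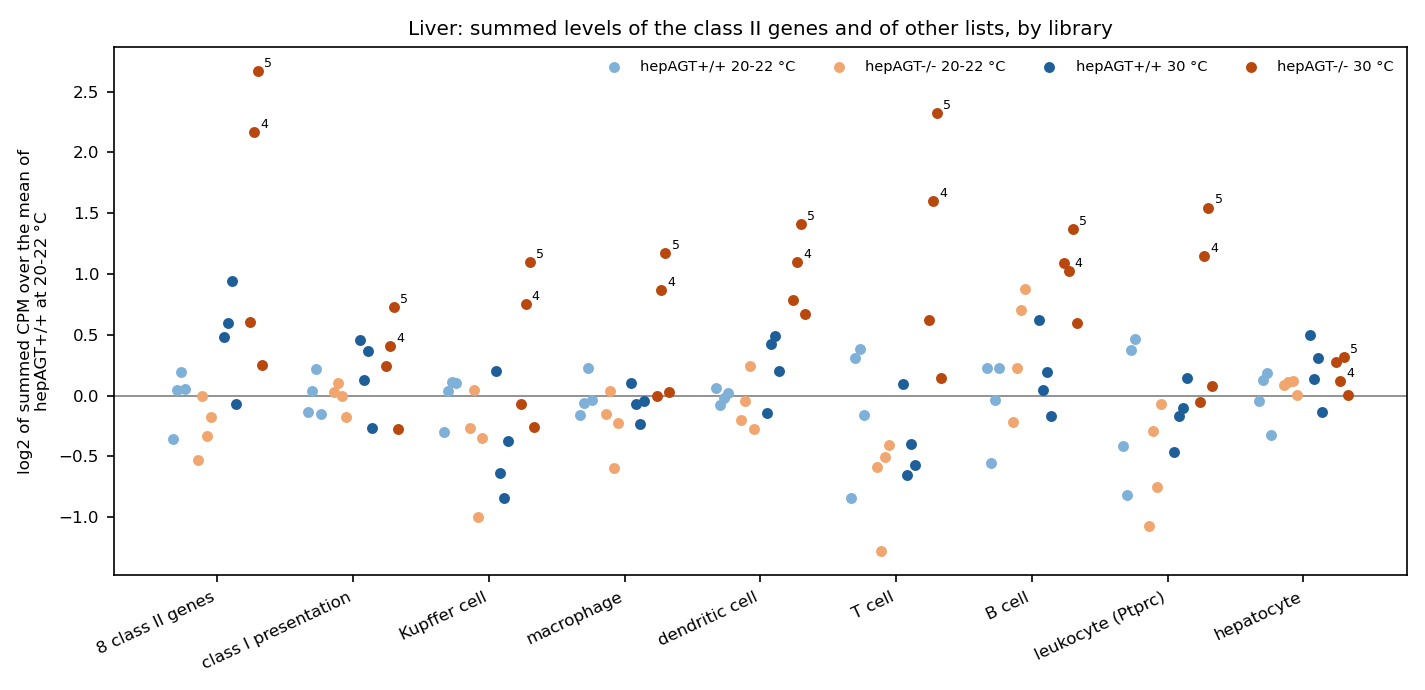
For the 16 liver libraries, the vertical axis gives the log2 of the summed CPM of each list over its mean in WT RT, and the lists run along the horizontal axis. Points are libraries, 4 per group, and KO TN replicates 4 and 5 are numbered. Both stand highest for the class II genes, Kupffer cell, macrophage, dendritic cell and T-cell markers and for Ptprc; for B-cell markers replicate 4 lies among the other libraries, and for hepatocyte markers both do.

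The same 2 livers were high in markers of several blood cell types. Kupffer cell markers summed to 433 and 551 CPM in replicates 4 and 5, against 129 to 297 CPM in the other 14 libraries. Macrophage markers summed to 447 and 550.5 CPM against 161 to 286 CPM, and T-cell markers to 18.3 and 30.1 CPM against 2.49 to 9.26 CPM. B-cell markers summed to 11.8 and 15.04 CPM, with the other 14 libraries at 3.98 to 12.4 CPM. Against these the summed class II genes, at 681 and 963 CPM, compare with 105 to 291 CPM. The part of these markers in the class II levels was not tested. For genotype at TN in liver, Irf1, a factor induced by interferon gamma, rose (1.04, SE 0.23, adjusted p = 0.0192). So did Nlrc5, the class I counterpart of Ciita (0.97, SE 0.19, adjusted p = 0.00825). Psmb9 (1.17), Cd86 (1.29) and Vsig4, a Kupffer cell receptor (1.06), rose as well. No other gene of the pathway, macrophage, Kupffer cell, dendritic, T-cell or B-cell lists was called, against 3.18% of all genes in either direction. These genes were not refitted without replicates 4 and 5. The interferon gamma axis summed to 199 to 349 CPM in KO TN, highest in replicate 5, and 194 to 217 CPM in WT TN. Class I genes summed to 2498 to 5015 CPM and 2517 to 4154 CPM, also with overlap.

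Whether a genotype or housing difference itself varied between tissues was tested with F tests in the fit of all 48 libraries. The log2 values given beside these tests are those of the separate fits of each tissue. The genotype difference at TN varied between tissues for 5 of 8 genes, against 0.904% of all genes. H2-Ab1 stood at 1.44 in liver, -0.27 in BAT and -0.72 in eWAT (adjusted p = 0.0173), and H2-DMb1 at 1.17 in liver, -0.27 in BAT and -1.18 in eWAT (adjusted p = 0.0461). H2-Aa, H2-Eb1 and H2-DMa were the others called. Each was above 0 in liver and below 0 in both fats. Without liver KO TN replicate 4 or 5 none of the 5 calls stood. The count also fell to 1 without eWAT KO TN replicate 3, 5 or 21, eWAT WT TN replicate 6 or 7, or liver WT TN replicate 6 or 24, to 2 without BAT WT TN replicate 6 or 7 or liver WT TN replicate 1, and to 3 without BAT KO TN replicate 4.

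The housing difference in KO varied between tissues for 4 of 8 genes (H2-Aa, H2-Ab1, H2-Eb1 and Cd74), against 4.06% of all genes. Cd74 stood at 1.92 in liver, 1.52 in BAT and 0.40 in eWAT (adjusted p = 0.0332). For each of the 4 genes the eWAT value was the smallest of the 3 tissues. None of the 4 was called without liver KO TN replicate 4 or 5, liver KO RT replicate 9, eWAT KO RT replicate 9 or 10, or eWAT KO TN replicate 3, 5 or 21. There was 1 without BAT KO RT replicate 10 or 19 or eWAT KO TN replicate 4, and 2 without BAT KO RT replicate 14, BAT KO TN replicate 2, 4 or 5, or liver KO RT replicate 10, 16 or 19. The housing difference in WT varied for 1 of 8, H2-DMa, against 15% of all genes, at -0.02 in liver, 1.47 in BAT and 0.57 in eWAT (adjusted p = 0.0199). That count was 0 without BAT WT TN replicate 7 and 2 without BAT WT TN replicate 24 or liver KO TN replicate 5 or 22. The genotype difference at RT varied for 0 of 8, against 2.06% of all genes, with none at an unadjusted p below 0.05 and no other tool run for these tests.

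The class II genes other than H2-Oa varied together over the libraries of a tissue while the group differences were included. Over the 16 libraries of a tissue, the Pearson r of log2 CPM between pairs of H2-Aa, H2-Ab1, H2-Eb1 and Cd74 had a median of 0.9798 in liver. In BAT that median was 0.969, and 0.976 in eWAT. For the 21 pairs of all genes but H2-Oa the lowest r was 0.672 in liver, 0.831 in BAT and 0.884 in eWAT. For the 7 pairs with H2-Oa the medians were 0.447, 0.136 and 0.372. These are descriptions over libraries that include the group differences. After group means were taken out, the medians over pairs of the first 4 genes were 0.964 (liver), 0.882 (BAT) and 0.904 (eWAT). The lowest r of the 21 pairs without H2-Oa was then 0.659 (eWAT), 0.485 (liver) and 0.118 (BAT). Pairs with H2-Oa ran from 0.237 to 0.644 (eWAT), -0.366 to 0.353 (liver) and 0.329 to 0.608 (BAT). In BAT the lowest pairs within groups were those of H2-DMa, from 0.118 with H2-Ab1 to 0.2799 with H2-Eb1 over the 4 genes, 0.26 with H2-DMb1 and 0.425 with Ciita. In liver the KO TN group was the widest, with an SD of 73.2 CPM for H2-Aa against 3.16 to 12.1 CPM in the other groups. KO TN replicates 4 and 5 therefore weigh heavily on the liver r, and no r was taken without them.

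The balance between chains was also compared, as the CPM of one gene over another within a library, in which gene length cancels between groups. Cd74 over H2-Ab1 had group means from 1.88 (eWAT WT TN) to 2.70 (liver WT TN). H2-Aa over H2-Ab1 had group means of 0.909 to 1.10 in liver, 1.36 to 1.47 in eWAT and 1.31 to 1.79 in BAT. In BAT this ratio was 1.37 to 1.97 in WT RT and 1.21 to 1.83 in WT TN, so the ranges overlapped. H2-DMb1 over H2-DMa had group means from 0.612 (liver KO RT) to 1.70 (eWAT WT TN).

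The genes outside the set whose log2 CPM followed the mean of H2-Aa, H2-Ab1, H2-Eb1 and Cd74 most closely over the 16 libraries of a tissue differed by tissue, and this too is a description with no test. In liver they were Cxcl9 (r = 0.956), Ccl5, Lpcat2, Ly6a and Otulinl, of 11835 genes compared. Their Spearman rank correlations were lower, from 0.709 (Ly6a) to 0.891 (Cxcl9). Cxcl9, a chemokine that interferon gamma induces and that attracts T cells, read 11.2, 13.04, 57.8 and 138 CPM in the 4 KO TN livers and 7.67 to 17.3 CPM in the other 12. In BAT they were B2m (r = 0.977), Ctss, Mpeg1, Heph and Tmem176a, of 12302 genes. B2m read 206, 364, 453 and 465 CPM in WT RT and 558, 716, 719 and 747 CPM in WT TN, with no overlap. In eWAT they were Pld4 (r = 0.962), Slamf9, Il10ra, C1qc and Unc93b1, of 12997 genes. C1qc, a complement chain made by macrophages, read 139.7, 150.2, 181 and 201 CPM in WT TN and 105, 107, 118 and 127 CPM in KO TN, also apart.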

How the data were processed

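RNA was extracted with Maxwell RSC simplyRNA kits, made into NEBNext Ultra libraries and read paired-end on a NovaSeq instrument, per the labels' protocols. The deposited values were whole-number counts per gene, 1 file per library. The submitters' processing notes name fastp, STAR 2.6.1d, featureCounts 1.5.0-p3 and GRCm38/mm10, and strand setting and annotation release are not given in the sources used here. Symbols were matched to 91.8% of 56748 identifiers, and in each library these took up 94.8% of counts or more. Exon lengths and overlaps came from GENCODE M21, which may differ from the release the counts were made with.

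Each tissue's 16 libraries were fitted in edgeR 4.0.16 (R 4.3.3), with trimmed-mean scaling, the edgeR filter on low counts (minimum 10) and robust quasi-likelihood tests on group means, adjusted by Benjamini-Hochberg over all genes kept (liver 17594, BAT 18032, eWAT 18933). All 8 class II genes passed the filter in each tissue. A fit of 48 libraries (21910 genes) gave tissue differences and the F tests between tissues. The comparisons within a tissue share libraries and are not independent. p-values measure the spread between these libraries. No 2 libraries of a group agreed within sampling noise (lowest chi-square per gene 17.1). The fit was tested on simulated data.

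Alternatives were other scaling, other filters on low counts, DESeq2 1.42.0, a fit of only the 8 libraries compared, and leaving out libraries. Shares of all genes called are those of the main fits, and none is given for these alternatives. Named genes were the 8 members, called genes of the listed pathways and markers, and the 5 genes most like the class II mean in each tissue. Members and lists were chosen with earlier results of these data known.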

Additional observations from a re-analysis of the deposited data

Results flagged for a closer look

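In 6 of the 96 sets of 4 libraries (8 genes in 12 groups), 1 library stood apart from its group by Dixon's criterion, which chance meets in about 1 in 20 groups. In BAT these were KO TN replicate 5 for H2-Aa, at 149 CPM with the others at 85.3 to 92.8 CPM, and WT TN replicate 24 for H2-Ab1, at 72.5 CPM with the others at 103 to 106 CPM. They also were KO TN replicate 2 for H2-DMa, at 4.31 CPM with the others at 8.06 to 8.802 CPM, and KO RT replicate 19 for Cd74, at 44.8 CPM with the others at 65.9 to 70.03 CPM. In liver it was KO RT replicate 9 for both H2-DMb1 (0.647 CPM, the others 2.96 to 3.36) and Ciita (1.04 CPM, the others 1.99 to 2.13). The 2 high KO TN livers are not among them, since the measure compares each library with its nearest neighbour.

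A difference between tissues in the size of an effect passed the F test in edgeR (Benjamini-Hochberg adjusted) 10 times. For genotype at TN the adjusted p was 0.03899 for H2-Aa, 0.0173 for H2-Ab1, 0.0373 for H2-Eb1, 0.0325 for H2-DMa and 0.0461 for H2-DMb1. For housing in KO it was 0.0365 for H2-Aa, 0.0451 for H2-Ab1, 0.0392 for H2-Eb1 and 0.0332 for Cd74. For housing in WT it was 0.0199 for H2-DMa.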

How the results depend on the processing

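The counts of class II genes called in BAT for housing stayed at 7 of 8 in each genotype under every scaling, filter, tool and left-out library tried, except that without the 6 muscle-marked libraries (a limit set after seeing the data) KO had 4. DESeq2 called 1 gene for genotype at RT in BAT, 2 at RT and 7 at TN in eWAT and 3 at TN in liver, and for housing 5 in WT and 1 in KO in eWAT and 7 in KO in liver. With no filter on low counts, housing in eWAT gave 1 in WT and 1 in KO, a filter of 1 CPM gave 1 in KO, and a fit of only the 8 libraries gave 0 for genotype at TN in eWAT. Some signs turned, none of them of a called gene: without liver KO TN replicates 4 and 5, the genotype difference at TN was -0.038 for H2-Aa, -0.24 for H2-Eb1, -0.061 for H2-DMb1 and -0.14 for Cd74. For genotype at RT in BAT, H2-DMa was 0.0049 in the fit of 8 libraries, and Cd74 was 0.031 and Ciita 0.39 without the muscle-marked libraries. Cd74 between BAT and liver was -0.071 over WT RT libraries alone. Over the values of single genes, a called difference kept its call in 1444 and lost it in 192 of the refits, and one not called gained a call in 81. The causes were not tested.

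With 1 library left out at a time, the counts ran over 0 to 2 for genotype at RT in BAT, 0 to 1 at RT and 0 to 7 at TN in eWAT, 0 to 2 at TN in liver, 0 to 2 and 0 to 1 for housing in WT and KO in eWAT, 0 to 6 for housing in KO in liver, and 2 to 4 between BAT and liver. For the differences between tissues they ran over 0 to 7 for genotype at TN, 0 to 5 for housing in KO and 0 to 2 for housing in WT. Log2 fold changes that crossed 0 ran, in liver, over -0.20 to 0.68 (Ciita, genotype at RT), -0.15 to 0.21 (H2-DMa), -0.92 to 0.26 (H2-Oa) and -0.038 to 0.85 (Ciita, all housing in WT). In BAT at RT for genotype they ran over -0.099 to 0.038 (H2-DMa), -0.25 to 0.026 (Cd74) and -0.87 to 0.20 (Ciita). For H2-Oa they ran over -0.58 to 0.76 (genotype at TN), -0.51 to 0.81 (housing in WT) and -1.18 to 0.15 (housing in KO) in BAT and -0.43 to 0.37 and -0.60 to 0.20 for housing in WT and KO in eWAT. Between BAT and liver H2-DMb1 ran over -0.14 to 0.050 and Ciita over -0.28 to 0.099.

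Replicate numbers recur across tissues, and within a tissue no number recurs. Over all genes kept, libraries with the same number did not deviate together (r from -0.32 to 0.15). No r was taken over the class II genes alone. Their sum was highest in replicate 15 in WT RT of all 3 tissues. In KO RT it was highest in replicate 10 in liver and eWAT and 9 in BAT. In WT TN this was replicate 7 in liver and 6 in BAT and eWAT. In KO TN it was replicate 5 in liver and BAT and 4 in eWAT. With a replicate block, 7 genes were called between eWAT and liver, 2 between BAT and liver, 7 between eWAT and BAT, and 4, 1 and 4 for the tissue differences of genotype at TN, housing in WT and housing in KO. The block took the call from H2-Oa between eWAT and BAT (adjusted p 0.06196), from H2-DMb1 for the tissue difference of genotype at TN (adjusted p 0.155) and from H2-Ab1 for that of housing in KO (adjusted p 0.0648), where it gave one to H2-DMa (adjusted p 0.03099), and it changed no other call. H2-Oa and Ciita rest on few counts in liver and BAT, which limits what could be detected for them.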
